A study of Mus musculus with 6 samples.

Results

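Macrophage lineage identity genes were followed in primary mouse embryonic fibroblasts (pMEFs) with and without HAT1, an acetyltransferase that marks new histone H4 ahead of chromatin assembly. The 9 genes were Csf1r, Spi1, Adgre1, Cd68, Maf, Cd53, Ptprc, Mrc1 and Lyz2, out of 17512 genes in the count table, and all 9 were present and passed the filter on low counts. They were selected by name as genes that mark the macrophage lineage, and with their lower level in the HAT1 KO lines already known. Their difference between the genotypes is therefore given as a description and not as a test. The question put to them was how uniform the ratio of HAT1 KO to HAT1 WT was from gene to gene and from line to line.

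Polyadenylated RNA was sequenced from 6 pMEF lines on the C57bl6 background, of which 3 were HAT1 WT (lines 36, 47 and 78) and 3 were HAT1 KO (lines 33, 41 and 72). Each line was treated as 1 replicate. The lines were grown in serum-containing medium from the tissue of mid-gestation embryos after the internal organs had been taken out, and no treatment was named for either genotype. Such a culture is not sorted, so it can hold cells other than fibroblasts, and in a bulk library fewer cells of a type and less RNA per cell cannot be told apart. The study's methods give a range of embryonic days for all embryos, and neither the exact day nor the sex behind each line, nor the part of Hat1 that was deleted, was given in the sources used here.

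Macrophages are phagocytes that settle in most tissues of the embryo before birth. Their survival and growth depend on signals through the CSF1 receptor, encoded by Csf1r, and their gene programme depends on the transcription factor PU.1, encoded by Spi1, which binds purine-rich sites with a GGAA core and acts on Csf1r among many other myeloid genes. MAF is a transcription factor of the mature macrophage that holds back its self-renewal. ADGRE1 (the F4/80 antigen), CD68, CD53, CD45 (encoded by Ptprc) and the mannose receptor CD206 (encoded by Mrc1) are membrane proteins used to recognise these cells, and lysozyme 2 (encoded by Lyz2) is a secreted enzyme that cuts bacterial cell walls. CD45 and CD53 are found on most blood-derived cells, whereas CD206 is also made by some endothelial cells.

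The sequences just before the start sites of 4 of these genes are shown as a description of their letters. A role of PU.1 in the lower levels was not tested. RefSeq promoter windows (250 bases before to 50 after a start site, GRCm38.p6) were found for Ptprc, Mrc1, Cd53, Lyz2 and Cd68, that is for 5 of the 9 genes. The letters GAGGAA, a short form of the PU.1 and ETS site, were searched on both strands. They occurred in 28.3% of the 32851 windows of all genes and in windows of 4 of these 5 genes. In the upstream sequences below, read 5′ to 3′ along each gene's own strand, capitals mark GAGGAA or its reverse complement TTCCTC.
Mrc1, plus strand, chr2:14229164-14229391: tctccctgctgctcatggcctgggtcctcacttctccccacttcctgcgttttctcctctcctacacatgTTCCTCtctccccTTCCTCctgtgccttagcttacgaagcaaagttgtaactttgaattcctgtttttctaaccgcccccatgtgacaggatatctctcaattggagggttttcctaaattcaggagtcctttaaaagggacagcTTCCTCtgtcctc
Cd53, minus strand, chr3:106790150-106790399: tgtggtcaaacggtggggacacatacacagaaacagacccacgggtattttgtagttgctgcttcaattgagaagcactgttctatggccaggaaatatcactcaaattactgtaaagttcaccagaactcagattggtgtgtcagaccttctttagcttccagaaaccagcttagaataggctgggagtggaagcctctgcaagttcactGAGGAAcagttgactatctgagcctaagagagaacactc
Cd68, minus strand, chr11:69666171-69666420: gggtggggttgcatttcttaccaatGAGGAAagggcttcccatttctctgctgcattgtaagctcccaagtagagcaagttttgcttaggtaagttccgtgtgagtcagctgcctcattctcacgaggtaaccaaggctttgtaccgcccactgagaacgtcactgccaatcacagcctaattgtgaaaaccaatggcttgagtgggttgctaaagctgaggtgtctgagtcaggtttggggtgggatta
Lyz2, minus strand, chr10:117282322-117282522: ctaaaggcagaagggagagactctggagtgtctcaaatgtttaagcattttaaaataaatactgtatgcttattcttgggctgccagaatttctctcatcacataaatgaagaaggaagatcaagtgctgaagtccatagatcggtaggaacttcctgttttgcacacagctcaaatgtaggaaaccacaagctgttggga
The stretch before Mrc1 held 3 matches, those before Cd53 and Cd68 held 1 each, and the one before Lyz2 held none. Only the full letters GAGGAA were counted, and the shorter core GGAA does occur in the stretch before Lyz2. Ptprc, not printed, had 1 match at -158 in the first of its 2 windows. The core of the MAF site, TGCTGA, occurred in 19.5% of all windows and, among the 5 genes, only in that of Lyz2, starting at -125. A short form of the C/EBP site, TTGCNNAA, occurred in 10.8% of all windows and only in that of Cd68, starting at -43. These matches describe the letters in the windows and were not taken as binding sites.

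The libraries held 67720628 to 98786746 counts. Hat1 itself stood at 17.4, 23.0 and 20.1 CPM in HAT1 WT lines 36, 47 and 78 and at 10.2, 10.0 and 10.3 CPM in HAT1 KO lines 33, 41 and 72, so every HAT1 KO line was below every HAT1 WT line but transcripts counted as Hat1 were not lost. CPM here is a count divided by its library total and given per 1e6 counts, with library totals scaled by TMM, the trimmed mean of M-values. Across the 14773 genes tested with edgeR's quasi-likelihood test, 78 were lower in HAT1 KO at an adjusted p-value under 0.05, which is 0.528%, and 0 were higher, with 869 genes higher at an unadjusted p-value under 0.05. DESeq2's Wald test called 620 lower. These calls needed nearly all of the lines, since 71 genes were called lower without HAT1 KO line 72 but only 0 to 5 without any 1 of the other lines, and 2 with lane in the model.

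All 9 macrophage genes had counts in every line and were lower in each of the 3 HAT1 KO lines than in any HAT1 WT line. Among all tested genes, 12.4% had no overlap in that direction. Of the 9 genes, 7 were among the 78 called lower, and Cd68 and Mrc1 were not. Since the genes were selected on this contrast, neither count is evidence for it. None of the 9 was called with lane in the model or without any 1 of the lines other than HAT1 KO line 72.

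**Figure D1:**
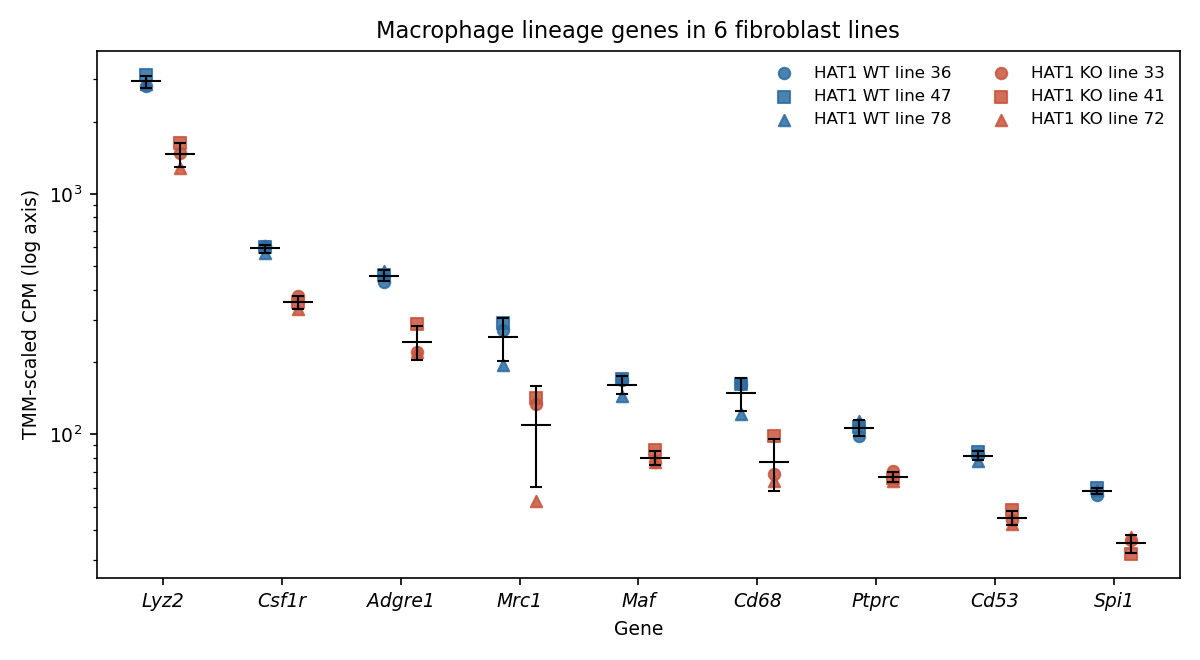
Level of the 9 macrophage genes in TMM-scaled CPM (log axis) in each of the 6 lines, with the mean and SD of each genotype in black (n = 3). The HAT1 KO points lie below the HAT1 WT points for every gene, from Lyz2 at a HAT1 WT mean of 2938 CPM to Spi1 at 58.2 CPM, and the widest black bar is that of Mrc1 in HAT1 KO.

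Ranks, sums and shares given in CPM elsewhere are not divided by gene length. Here, levels were compared between genes after division by the length of the exons of each gene in kilobases. On this scale of CPM per kilobase in HAT1 WT, Lyz2 was far above the others at 2232 ± 131 (SD, n = 3). Adgre1 followed at 141 ± 7.31, Cd68 at 118 ± 18.5 and Csf1r at 103 ± 3.88. Cd68 and Csf1r overlapped in their range over the lines, while Adgre1 was above both in all lines. Cd53 at 46.8 ± 1.98 and Mrc1 at 39.8 ± 8.05 also overlapped. The transcription factors came lower, with Spi1 at 21.6 ± 0.680 and Maf at 19.6 ± 1.72 CPM per kilobase. Ptprc was lowest at 5.83 ± 0.427, but the annotated exons of Ptprc add up to 18313 bases, and over its longest coding transcript of 5074 bases it stood at 21.05 CPM per kilobase, which left it in the same last place. With the longest coding transcript as length, Csf1r moved above Cd68 and Mrc1 above Cd53.

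The receptor of the lineage, Csf1r (chromosome 18, plus strand), stood at 609, 604 and 568 CPM in HAT1 WT lines 36, 47 and 78. In HAT1 KO lines 33, 41 and 72 it stood at 375, 356 and 331 CPM. The means were 593 ± 22.4 and 354 ± 22.1 CPM (SD, n = 3 each), so the HAT1 KO mean was 59.7% of the HAT1 WT mean and the log2 fold change was -0.74 (SE 0.077). The values lay close together within each genotype and the highest HAT1 KO line was well below the lowest HAT1 WT line. Csf1r shares 873 exon bases with Hmgxb3 on the opposite strand, and the library kit does not mark strand, so reads from these bases cannot be told apart. Hmgxb3 itself had 3276 to 4871 counts per library against 24060 to 56176 for Csf1r.

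The ligand of this receptor, Csf1, which fibroblasts make, had a difference near 0. It stood at 374, 365 and 416 CPM in HAT1 WT and at 354, 360 and 440 CPM in HAT1 KO, in the order of lines above. The genotypes overlapped, and the log2 fold change was -0.0024 (SE 0.11, adjusted p = 0.995). Il34, the other ligand of the receptor, was low, at 1.12 to 1.96 CPM in HAT1 WT and 1.46 to 2.23 CPM in HAT1 KO (log2 fold change 0.30, SE 0.29, adjusted p = 0.683).

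Of 14 genes of the CSF1 axis and related colony-stimulating factor receptors, 13 were tested and 10 had a log2 fold change below 0. Of the 13, 1 was called lower, beside 0.528% of all tested genes, and none higher. The median log2 fold change was -0.29, against 0.0085 over all tested genes. The called gene was Inpp5d, which encodes the phosphatase SHIP1, a brake on signalling below such receptors. It stood at 128, 131 and 116 CPM in HAT1 WT and at 73.6, 73.5 and 57.5 CPM in HAT1 KO (log2 fold change -0.88, SE 0.11, adjusted p = 0.0472). Csf2rb, the shared chain of the receptors for GM-CSF and IL-3, had a log2 fold change of -0.83 (SE 0.11) and an adjusted p of 0.0502, just above the threshold. Genes of wider expression in the axis had smaller values, with Grb2, an adaptor protein, at -0.29 (SE 0.058, adjusted p = 0.113) and Cbl, a ubiquitin ligase, at -0.20 (SE 0.054, adjusted p = 0.194). Stat5a, named after its values were seen, was at 16.2 to 19.9 CPM in 5 lines and at 53.9 CPM in HAT1 KO line 72.

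Spi1 (chromosome 2, 91082390 to 91115756, plus strand) encodes PU.1, and it was the least abundant of the 9 genes in CPM. It stood at 56.2, 59.7 and 58.9 CPM in HAT1 WT lines 36, 47 and 78 and at 36.3, 31.9 and 37.5 CPM in HAT1 KO lines 33, 41 and 72. The means were 58.2 ± 1.83 and 35.2 ± 2.95 CPM, or 60.5% of the HAT1 WT mean, with a log2 fold change of -0.73 (SE 0.080). Its lowest HAT1 KO value was in line 41 and its highest in line 72, the reverse of most of the other genes.

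Maf (chromosome 8, 115682942 to 115707794, minus strand) stood at 168, 171 and 145 CPM in HAT1 WT and at 76.6, 86.1 and 76.9 CPM in HAT1 KO. The means were 161 ± 14.1 and 79.8 ± 5.41 CPM, so HAT1 KO was at 49.5% of HAT1 WT, with a log2 fold change of -1.01 (SE 0.091). This was a larger difference than that of Spi1, with no overlap between genotypes. Maf shares 440 exon bases with the antisense transcript Gm15655, which was not in the table, and reads of both cannot be told apart without strand.

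The small MAF factors, which most cells express, gave values near 0, with Mafg at -0.06 (SE 0.052, adjusted p = 0.624), Mafk at 0.18 (SE 0.13, adjusted p = 0.581) and Maff at 0.12 (SE 0.19, adjusted p = 0.808). Over these 3 genes and Mafa the median was 0.15, or -0.07 without HAT1 KO line 72, and 0 were called, with 0 at an unadjusted p under 0.05.

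Among 13 other transcription factors of myeloid cells, 12 were tested, 10 were below 0, and the median log2 fold change was -0.56. Of the 12, 1 was called lower, beside 0.528% of all tested genes, and 0 higher. The called gene, Irf5, a factor of inflammatory gene induction, fell by 0.57 on the log2 scale (SE 0.074, adjusted p = 0.0472), from 44.6, 45.0 and 49.2 CPM in HAT1 WT to 32.2, 31.8 and 29.2 CPM in HAT1 KO. Ikzf1, which encodes the haematopoietic factor IKAROS, had an adjusted p of 0.0502 at a log2 fold change of -0.55 (SE 0.076). The most abundant factors of the list, which are not limited to myeloid cells, had smaller values, with Zeb2 at -0.29 (adjusted p = 0.283), Runx1 at -0.29 (adjusted p = 0.348) and Id3 at 0.15 (adjusted p = 0.481). Only 2 of the 12 factors had a log2 fold change inside the range of the 9 genes, and 10 were above it.

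Among the surface proteins, Adgre1 (chromosome 17, 57358691 to 57483527, plus strand) had the highest level per kilobase. It stood at 432, 460 and 480 CPM in HAT1 WT lines 36, 47 and 78 and at 221, 288 and 220 CPM in HAT1 KO lines 33, 41 and 72. The means were 457 ± 23.7 and 243 ± 38.6 CPM, or 53.1%, with a log2 fold change of -0.91 (SE 0.12). HAT1 KO line 41 was higher than lines 33 and 72, and still below every HAT1 WT line.

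Cd53 (chromosome 3, 106759921 to 106790149, minus strand), a tetraspanin of leukocytes, was among the most even of the 9, at 82.1, 84.7 and 77.9 CPM in HAT1 WT and 44.2, 48.3 and 42.4 CPM in HAT1 KO. The means were 81.6 ± 3.45 and 45.0 ± 3.01 CPM, or 55.1%, with a log2 fold change of -0.86 (SE 0.073). Ptprc (chromosome 1, 138062861 to 138175708, minus strand), the phosphatase CD45, had the smallest difference of the 9. It stood at 98.6, 108 and 114 CPM in HAT1 WT and at 70.4, 65.7 and 63.8 CPM in HAT1 KO, with means of 107 ± 7.83 and 66.6 ± 3.36 CPM, or 62.4%, and a log2 fold change of -0.68 (SE 0.078). Both leukocyte genes kept their genotypes well apart.

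Cd68 (chromosome 11, 69664213 to 69666153, minus strand), a protein of late endosomes and lysosomes, was less even. It stood at 162, 162 and 122 CPM in HAT1 WT lines 36, 47 and 78 and at 68.5, 98.6 and 64.0 CPM in HAT1 KO lines 33, 41 and 72. The means were 149 ± 23.3 and 77.0 ± 18.8 CPM, or 51.7%, with a log2 fold change of -0.95 (SE 0.20). The closest lines of the genotypes, HAT1 WT line 78 and HAT1 KO line 41, were nearer to each other here than for any of the other 8 genes.

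Mrc1 (chromosome 2, 14229392 to 14332057, plus strand) had the largest difference and the widest spread. It stood at 273, 292 and 195 CPM in HAT1 WT and at 134, 142 and 53.0 CPM in HAT1 KO, with means of 253 ± 51.3 and 110 ± 49.4 CPM, or 43.4%, and a log2 fold change of -1.21 (SE 0.38). HAT1 KO lines 33 and 41 were at 53.1% and 56.1% of the HAT1 WT mean, in the range of the other genes, whereas line 72 was at 20.9%.

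Lyz2 (chromosome 10, 117277331 to 117282321, minus strand), the most abundant of the 9, stood at 2812, 3134 and 2868 CPM in HAT1 WT and at 1483, 1623 and 1280.1 CPM in HAT1 KO. The means were 2938 ± 172 and 1462 ± 173 CPM, or 49.8%, with a log2 fold change of -1.01 (SE 0.12). Lyz2 has a close copy, Lyz1, whose transcript is 96.0% identical over 1262 aligned bases and shares 15.4% of the 50-base windows of the Lyz2 transcript, so some reads could be assigned to either. Lyz1 had 24 to 55 counts per library, against 98749 to 283758 for Lyz2.

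The 9 log2 fold changes had a median of -0.91, a mean of -0.90 and an SD of 0.17. They ran from -1.21 for Mrc1 to -0.68 for Ptprc, so the HAT1 KO to HAT1 WT ratios at the ends differed 1.44-fold. Without Mrc1 the SD was 0.13 and the ends differed 1.26-fold. Without HAT1 KO line 72 the 9 genes ran from -0.98 for Maf to -0.64 for Ptprc, with an SD of 0.10 and ends that again differed 1.26-fold. Across all tested genes the SD was 0.54, and 4.75% of them lay inside the range of the 9. A narrow range of genes that were all selected as lower is in part set by that choice.

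**Figure D2:**
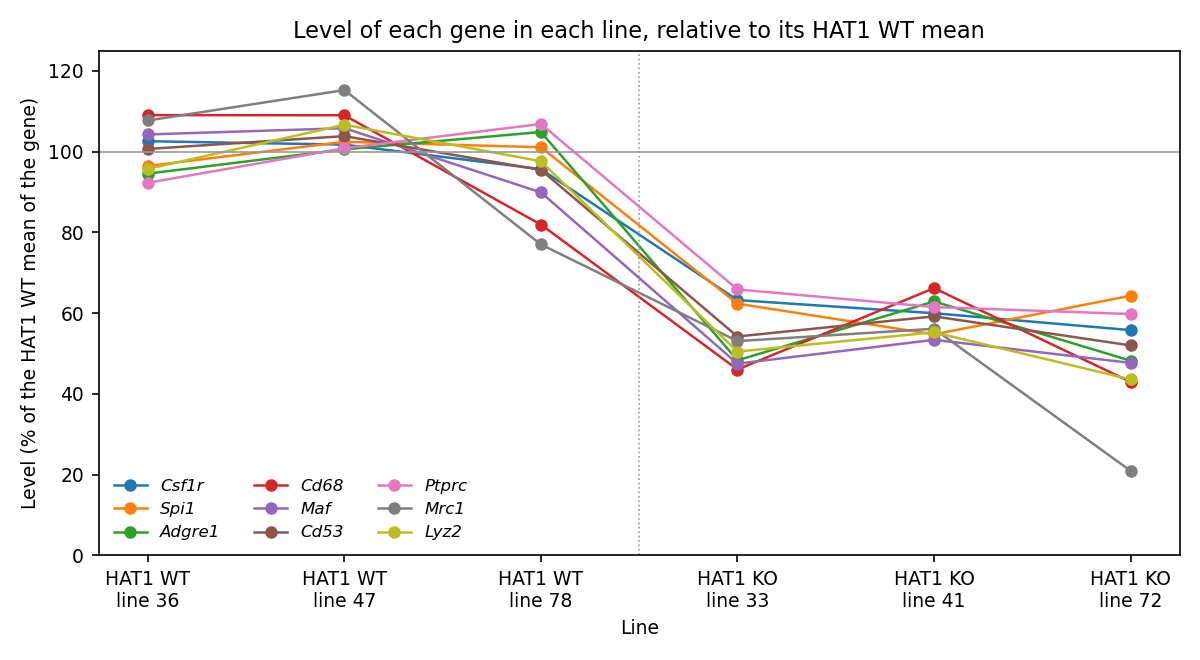
Level of each of the 9 genes in each line, as a percentage of the HAT1 WT mean of that gene, with lines drawn only to follow a gene. HAT1 KO lines 33 and 41 lie between 46.0% and 66.2% for all 9 genes, and in line 72 Mrc1 stands alone at 20.9%.

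Line by line, most of the 9 genes stood at a similar fraction of their HAT1 WT mean. In HAT1 KO line 33 the 9 genes lay between 46.0% (Cd68) and 65.9% (Ptprc) of their HAT1 WT means, with a median of 53.1%. In line 41 they lay between 53.4% (Maf) and 66.2% (Cd68), with a median of 59.2%. In line 72 they lay between 20.9% (Mrc1) and 64.3% (Spi1), with a median of 48.2% and a lowest value of 43.0% (Cd68) once Mrc1 was left out. Line 72 was thus the lowest HAT1 KO line for 7 of the 9 genes, the exceptions being Spi1 and Maf, and line 41 was the highest for 6. The HAT1 WT lines also had an order, in which line 47 was highest for 5 genes and lowest for none, and line 78 was lowest for 5, with Mrc1 at 77.0% and Cd68 at 81.9% of their means.

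The summed level of the 9 genes was 4693, 5074 and 4628 CPM in HAT1 WT lines 36, 47 and 78 and 2509, 2740 and 2169 CPM in HAT1 KO lines 33, 41 and 72. The HAT1 KO mean of 2473 ± 287 CPM was 51.5% of the HAT1 WT mean of 4799 ± 241 CPM, and 54.3% with Lyz2 left out. Lyz2 made up most of the sum, at 61.2 ± 1.13% in HAT1 WT and 59.1 ± 0.124% in HAT1 KO, and its share did not overlap between the genotypes. The share of Csf1r was 12.4 ± 0.546% in HAT1 WT and 14.4 ± 1.23% in HAT1 KO. It did not overlap either, but the nearest lines almost met, at 12.97% in HAT1 WT line 36 and 12.99% in HAT1 KO line 41. Cd53 was the only other gene whose share of the sum did not overlap, again narrowly, at 1.750% in HAT1 WT line 36 and 1.763% in HAT1 KO line 33. Shares within a line depend on each other, and no count over other genes stands beside them, so they are given as values only.

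The ratio between a pair of genes within a line does not depend on how the libraries were scaled. Of the 36 pairs, 5 had log2 ratios that did not overlap between the genotypes, a smaller share than the 20.6% of all pairs of tested genes, so the count does not set these pairs apart. As values only, the ratio of Ptprc to Lyz2 was higher in HAT1 KO by 0.33 on the log2 scale (SE 0.11), that of Csf1r to Maf by 0.27 (SE 0.086), that of Csf1r to Lyz2 by 0.27 (SE 0.090) and that of Cd53 to Lyz2 by 0.15 (SE 0.063), while that of Maf to Cd53 fell by 0.15 (SE 0.047). None of the 5 pairs held Mrc1. The ratio of Ptprc to Mrc1 had the largest mean difference, 0.63 with an SE of 0.49, and it overlapped between the genotypes and came to 0.20 without HAT1 KO line 72. Among the 28 pairs without Mrc1 no difference was above 0.33 in size.

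The labels gave a sequencing lane for each library, and Y-linked genes differed between lines, so each HAT1 KO line was also set against single HAT1 WT lines. Within lane 6, the 9 genes in HAT1 KO line 33 had a median of 48.0% of their level in HAT1 WT line 47, and those in HAT1 KO line 72 a median of 47.9%. Within lane 7, HAT1 KO line 41 had a median of 60.0% of HAT1 WT line 78. All 9 genes were lower in each of these within-lane comparisons, and over all 9 pairings of a HAT1 KO with a HAT1 WT line the medians also ran from 47.9% to 60.0%. The summed level of 4 Y-linked genes was 183 and 160 CPM in HAT1 WT lines 36 and 47, 2.33 CPM in HAT1 WT line 78 and at most 0.118 CPM in the HAT1 KO lines. Y-linked expression was thus unbalanced between the genotypes, and the part of sex in the values of the 9 genes was not tested. Against HAT1 WT line 78 alone, the median of the 9 genes was 56.8% in HAT1 KO line 33, 60.0% in line 41 and 53.0% in line 72, with all 9 genes lower each time.

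The wider macrophage list held 32 surface and effector markers, a list drawn up with earlier results of these data known. Of these, 31 were tested, Cd163 being too low at 0 to 8 counts. Below 0 were 30 of the 31 log2 fold changes, 5 genes were called lower and 0 higher, and in 21 genes no HAT1 KO line reached the HAT1 WT lines. Over all tested genes, 0.528% were called lower and 12.4% had every HAT1 KO line below every HAT1 WT line. The median log2 fold change was -0.76, against -0.91 for the 9 genes and 0.0085 for all tested genes. The summed level of the list was 3818 to 4254 CPM in HAT1 WT and 2106 to 2653 CPM in HAT1 KO.

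Among the called markers, Itgam, the integrin chain CD11b, stood at 149, 156 and 166 CPM in HAT1 WT and at 95.5, 82.5 and 82.8 CPM in HAT1 KO (log2 fold change -0.85, SE 0.085, adjusted p = 0.0353). The signalling adaptors that carry activating motifs fell together, Tyrobp by 0.78 on the log2 scale (SE 0.072, adjusted p = 0.0320) and Fcer1g by 0.66 (SE 0.080, adjusted p = 0.0376). Lcp1, an actin-bundling protein of leukocytes, went from 416, 427 and 463 CPM to 289, 275 and 285 CPM, a log2 fold change of -0.62 (SE 0.071, adjusted p = 0.0357). None of these 4 genes had overlapping genotypes, and their log2 fold changes ran from -0.85 to -0.62. Itgam and Tyrobp were inside the range of the 9 genes, whereas Fcer1g and Lcp1 differed less than Ptprc, the smallest of the 9 at -0.68.

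Marco, a scavenger receptor for bacteria and particles, stood apart. It was at 9.86, 7.86 and 13.4 CPM in HAT1 WT and at 2.27, 1.60 and 1.43 CPM in HAT1 KO, and fell by 2.56 on the log2 scale (SE 0.28, adjusted p = 0.0357). It was the only one of the 31 markers below the range of the 9 genes, with 18 inside it and 12 above it. Mpeg1, a pore-forming protein of phagocytes and the most abundant marker of the list, stood at 788, 829 and 758 CPM in HAT1 WT and at 508, 453 and 373 CPM in HAT1 KO, without overlap and with an adjusted p of 0.0605. At the other end, and named after their values were seen, Cd14 overlapped between genotypes at a log2 fold change of -0.12 (SE 0.30, adjusted p = 0.886) and Cx3cr1 at -0.46 (SE 0.25, adjusted p = 0.464), with HAT1 KO line 33 at 160 CPM inside the HAT1 WT values of 131 to 180.2 CPM.

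**Figure D3:**
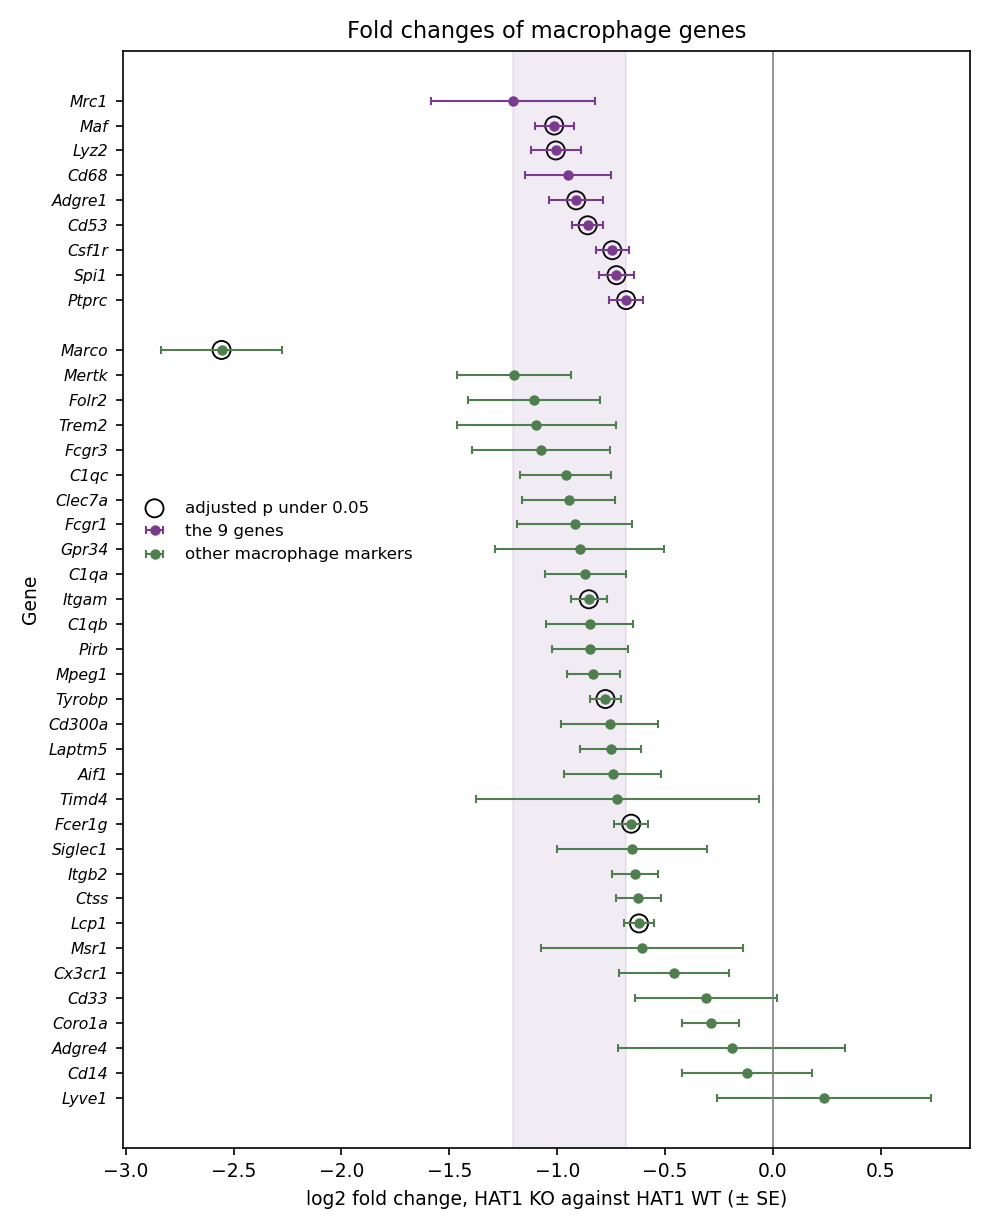
Log2 fold change of HAT1 KO against HAT1 WT with its SE for the 9 genes (top) and 31 other macrophage markers (bottom), with circles around genes at an adjusted p under 0.05 and the range of the 9 genes shaded. The shaded range, -1.21 to -0.68, holds 18 of the 31 markers, and Marco at -2.56 is the only one to its left.

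The low Mrc1 of HAT1 KO line 72 was not alone among these markers. Line 72 was the lowest HAT1 KO line for 21 of the 31 markers, line 41 for 7 and line 33 for 3, and the median marker was at 46.8% of its HAT1 WT mean in line 72, at 61.1% in line 41 and at 64.1% in line 33. Mertk, a receptor for the uptake of dying cells named after its values were seen, stood at 19.4, 25.7 and 12.6 CPM in HAT1 KO lines 33, 41 and 72 against 48.2, 47.3 and 37.0 CPM in HAT1 WT. Fcgr3, an IgG receptor also named after its values were seen, stood at 46.0, 49.9 and 24.2 CPM against 95.3, 98.9 and 59.0 CPM. Both had the pattern of Mrc1, with HAT1 KO line 72 lowest and HAT1 WT line 78 below the other HAT1 WT lines. Without line 72, 5 of the 9 genes and 4 of the 31 markers were called lower.

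Markers of other cell types were read beside these values. Lymphocyte markers summed to 0.278 to 0.832 CPM in HAT1 WT and 0.389 to 0.814 CPM in HAT1 KO. Of these 11 markers 7 were in the table, but only 1 passed the filter and was tested, and it was not called. The neutrophil markers S100a8 and Camp were the only 2 of 9 in the table, and neither was tested. They summed to at most 0.141 CPM in HAT1 WT and 0.337 CPM in HAT1 KO. Both lists were near 0 in every library, while Ptprc, shared by these cells and macrophages, stood at 63.8 CPM or more. Mast cell markers summed to 11.0 to 13.5 CPM in HAT1 WT and 7.41 to 13.0 CPM in HAT1 KO, nearly all of it Gata2, with 0 of 3 tested genes called. Erythroid markers summed to 1.19 to 1.48 CPM in HAT1 WT and 1.01 to 1.78 CPM in HAT1 KO, with 0 of 2 tested genes called.

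Megakaryocyte markers were mixed. Pf4, a platelet chemokine, stood at 7.69, 11.1 and 10.6 CPM in HAT1 WT and at 3.75, 3.15 and 2.46 CPM in HAT1 KO (log2 fold change -1.65, SE 0.22, adjusted p = 0.0479). It was the only one of the 4 tested that was called, beside 0.528% of all tested genes called lower. Itga2b, an integrin chain that defines the lineage, stood at 2.41 to 2.64 CPM in HAT1 WT and, without overlap, at 2.04 to 2.26 CPM in HAT1 KO (log2 fold change -0.25, SE 0.16, adjusted p = 0.529). Ppbp, named after its values were seen, was at 23.8 CPM in HAT1 KO line 72 and at most 0.822 CPM elsewhere. Endothelial markers, of interest because Mrc1 is also made by some endothelial cells, summed to 15.1 to 21.1 CPM in HAT1 WT and 13.1 to 18.9 CPM in HAT1 KO. None of the 6 tested was called, and their median log2 fold change was -0.25, from -0.04 without HAT1 WT line 36 to -0.51 without HAT1 KO line 72. At very low levels, 2 of the 6 did not overlap between the genotypes, beside 12.4% of all tested genes without overlap in that direction. Pecam1 was at 0.504 to 0.646 CPM in HAT1 WT and 0.118 to 0.292 CPM in HAT1 KO (log2 fold change -1.63, SE 0.41, adjusted p = 0.176). Cdh5 was at 0.522 to 0.742 CPM in HAT1 WT and 0.325 to 0.337 CPM in HAT1 KO (log2 fold change -0.85, SE 0.28, adjusted p = 0.260). The part of endothelial cells in the values of Mrc1 was not tested.

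**Figure D4:**
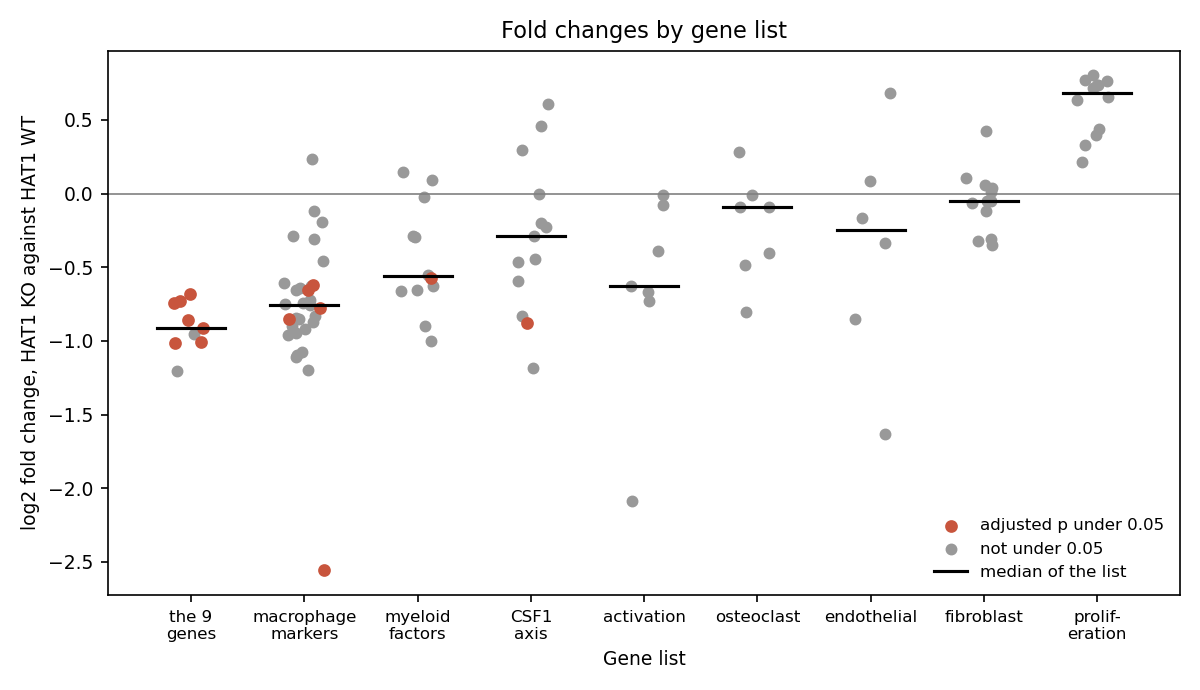
Log2 fold change of each tested gene in 9 lists, with the median of each list as a black bar and genes at an adjusted p under 0.05 in red. The medians run from -0.91 for the 9 macrophage genes and -0.76 for the other macrophage markers to -0.05 for fibroblast markers and 0.69 for proliferation markers.

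The fibroblast list summed to a much higher level in CPM than the 9 genes, and none of its genes was called. Its single genes varied widely, from Twist1, named after its values were seen, at a HAT1 WT mean of 64.9 CPM to Col1a1 at 34804 CPM. The 12 fibroblast markers had a median log2 fold change of -0.05 with 7 below 0 and 5 above, and the median ran from -0.13 without HAT1 KO line 33 to 0.13 without HAT1 WT line 78. They summed to 71848 to 77310 CPM in HAT1 WT and 58471 to 90495 CPM in HAT1 KO, with the lowest value in line 72. Proliferation markers went the other way without reaching the threshold. All 12 were above 0, with a median of 0.69, 0 called and 8 with an unadjusted p under 0.05, and their sum was 522 to 781 CPM in HAT1 WT and 741 to 1062 CPM in HAT1 KO. The part of these values in the difference of the 9 genes was not tested.

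Across the 6 lines, the level of each of the 9 genes was compared with the mean of the other 8 after standardising the log2 values, as a description with no test. Lyz2 was the closest at a Pearson r of 0.997, Cd53 was at 0.997 and Csf1r at 0.989, whereas Spi1 was at 0.920 and Mrc1 was the least close at 0.860. Among genes outside the 9, those most like their mean were Prex1, Nckap1l and Efhd2, each at 0.999, followed by Pi4k2a, Arhgap45, Cbl, Hpgds, Zscan18, Rreb1 and March1, down to 0.996. The 6 points fall into 2 genotypes and share their libraries, and r does not measure the size of the difference. Nckap1l, a subunit of the actin regulator WAVE in blood cells, stood at 178, 183 and 177 CPM in HAT1 WT and at 99.4, 107 and 90.4 CPM in HAT1 KO, a log2 fold change of -0.86 (SE 0.077). Prex1, an activator of Rac, was at -0.87 (SE 0.082) and Hpgds, the haematopoietic prostaglandin D synthase, at -0.99 (SE 0.093), all inside the range of the 9 genes. Cbl and Pi4k2a had log2 fold changes of only -0.20 (SE 0.054) and -0.19 (SE 0.052).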

How the data were processed

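The authors deposited raw counts, 1 row per gene and 1 column per library, with no normalization (6 libraries, TruSeq RNA v2 from total RNA). Their own log2 fold change, mean CPM, F score, p-value and q-value columns were not used. The submitters' processing notes name mm10 and edgeR, and the aligner, counter, annotation and strand setting were not given in the sources used here. Identifiers were matched to GENCODE M21 (17512 of 17512), and 24 symbols turned into dates were restored. Among counts from 1 to 10, 75.1% were even. No libraries were identical.

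Genotypes were compared in edgeR 4.0.16 (R 4.3.3) with filterByExpr, TMM scaling and glmQLFTest on genotype alone, two-sided, with Benjamini-Hochberg adjustment over 14773 genes at 0.05. SEs were obtained from the log2 fold change and the F statistic (absolute log2 fold change over root F). The script was tested on simulated data. Errors are SDs over 3 lines, and p-values cover only the spread between these lines. With 3 lines against 3, exact permutation of 1 gene gives no p under 0.1. Likeness used log2(CPM + 0.5). The genes, lists, tests and alternatives were chosen with earlier results of these data known. Some list genes are not reported here and were left out of the list counts. Named were the 9 genes, Hat1, for each list up to 6 genes with the highest mean or smallest p, and the 10 genes most like the 9. Alternatives were DESeq2 1.42.0 (size factors and Wald test), library size alone, other filters, lane, a block by the first digit of the line names, and leaving out each line.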

Additional observations from a re-analysis of the deposited data

How the results depend on the processing

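In no alternative did one of the 9 genes change direction, but the calls depended on the setting. The count of tested genes lower at adjusted p went from 78 to 620 with DESeq2's Wald test, to 46 with no filter, to 2 with lane in the model and to 0 with the leading digit of the line numbers as a block, and from 0 to 71 with 1 line left out. Of the 9 genes, 7 were called, 9 with DESeq2's Wald test, 0 with lane, 0 with the leading-digit block, and 0 to 5 with 1 line left out, the 5 without HAT1 KO line 72 and 0 without each of the other 5 lines. Their median log2 fold change ran from -1.05 to -0.82 with 1 line left out, the ends being without HAT1 KO line 41 and line 72. The SD over the 9 genes ran from 0.10 to 0.25 in the same fits. Of the 31 other macrophage markers 5 were called, 21 with DESeq2's Wald test, 0 with lane, 0 with the leading-digit block, and 0 to 4 with 1 line left out. The lane fit in effect drops HAT1 WT line 36, the only library of lane 8, and each reduced fit has fewer samples. No paired analysis was possible because the genotypes share no line numbers. The block by leading digit was tried only because both genotypes have a line in the 30s, the 40s and the 70s, a number and not a known pairing. Of 117 values of single genes among the 9 in the alternatives, 61 stayed on their side of the threshold, 54 lost the call and 2 gained it (Cd68 and Mrc1 with DESeq2). Of 194 medians of the other lists in the alternatives, 69 moved by more than 0.091, the median SE of the 9 genes. Low-count markers such as Cd163 could not be judged at this depth.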

Other observations

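Markers of specialised or activated macrophages were read beside the 9 genes, from lists drawn up with earlier results of these data known. Of the 8 osteoclast markers in the table, 7 were tested, 0 were called and the median log2 fold change was -0.09, a value whose sign was not stable, from -0.42 without HAT1 WT line 36 to 0.18 without HAT1 WT line 78. Ctsk, the collagen-degrading cathepsin K of osteoclasts that fibroblasts also make, stood at 123, 103 and 183 CPM in HAT1 WT lines 36, 47 and 78 and at 128, 98.4 and 156 CPM in HAT1 KO lines 33, 41 and 72 (adjusted p = 0.896). Acp5, tartrate-resistant acid phosphatase, was named after its values were seen. It stood at 3.63, 4.51 and 29.4 CPM in HAT1 WT and at 9.07, 1.45 and 18 CPM in HAT1 KO, so the lines of each genotype differed more among themselves than the genotypes did.

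Of 6 microglia markers, 0 were called and the median log2 fold change was -0.11, and -0.0032 without HAT1 WT line 78. The values ran from -1.12 to 3.62, so the median does not stand for each gene. Which cells made these transcripts was not tested. Sparc, the most abundant at a HAT1 WT mean of 4697 CPM, was at 0.0055 (SE 0.13). Tmem119 was at -0.15 (SE 0.14) and Olfml3 at -0.08 (SE 0.16), and like Sparc they overlapped between the genotypes. Sall1, a nuclear factor named after its values were seen, went the other way, at 0.345, 1.16 and 0.788 CPM in HAT1 WT and at 0.674, 6.94 and 20.7 CPM in HAT1 KO (log2 fold change 3.62, SE 1.17, adjusted p = 0.250), with HAT1 KO line 33 inside the HAT1 WT values. Fcrls, named after its values were seen, had the line pattern of Mrc1. It stood at 312, 350 and 289 CPM in HAT1 WT and at 197, 185 and 56.6 CPM in HAT1 KO. The log2 fold change of Fcrls was -1.12 (SE 0.44, adjusted p = 0.326), without overlap. P2ry12, also named after its values were seen, overlapped between the genotypes at -0.53 (SE 0.37, adjusted p = 0.562).

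Of 7 activation markers tested, 0 were called and all 7 were below 0, with a median log2 fold change of -0.63 that came to -0.38 over genes with a mean of at least 50 counts and ran from -0.87 without HAT1 KO line 33 to -0.25 without HAT1 WT line 78. Il1b, the cytokine interleukin 1 beta, was low, at 0.915, 0.919 and 0.930 CPM in HAT1 WT and 0.337, 0.178 and 0.130 CPM in HAT1 KO, without overlap (log2 fold change -2.08, SE 0.41, adjusted p = 0.106). Ptgs2, the prostaglandin synthase COX2 and the most abundant gene of the list, had a lower HAT1 KO line and a higher one, at 37.5, 111 and 198 CPM against 136, 112 and 100.2 CPM in HAT1 WT.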
